A study of Mus musculus with 547 samples.

Results

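The 10 genes described here encode the cyclins, kinases and inhibitors that act at the G1 phase of the cell cycle: Ccnd1, Ccnd2, Ccnd3, Ccne1, Ccne2, Cdk4, Cdk6, Cdkn1a, Cdkn1b and Cdkn2c. They were taken by symbol from the 40824 genes of the count tables, and all 10 were found. D-type cyclins (Ccnd1, Ccnd2, Ccnd3) bind the kinases CDK4 and CDK6 in response to growth signals, and these complexes begin to phosphorylate the retinoblastoma protein. E-type cyclins (Ccne1, Ccne2) then activate CDK2 at the start of DNA replication, and their genes are themselves targets of E2F factors. Cdkn2c encodes p18INK4c, which blocks CDK4 and CDK6, while Cdkn1a (p21) and Cdkn1b (p27) are inhibitors of cyclin-CDK complexes, and Cdkn1a is a known target of p53. Hepatoblasts of the fetal liver divide rapidly and slow as they become hepatocytes, and cyclin D1 is the D-type cyclin best known from liver regeneration.

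On the GRCm38 build (GENCODE M21), Ccnd1 (ENSMUSG00000070348) lies on the minus strand at chr7:144929931-144939925, and Ccnd2 (ENSMUSG00000000184) on the minus strand at chr6:127125162-127152193. Ccnd3 (ENSMUSG00000034165) lies on the plus strand at chr17:47505051-47599691. Ccne1 (ENSMUSG00000002068) is at chr7:38097984-38107534 on the minus strand and Ccne2 (ENSMUSG00000028212) at chr4:11191351-11204779 on the plus strand. The kinase gene Cdk4 (ENSMUSG00000006728) spans chr10:127063534-127067920 and Cdk6 (ENSMUSG00000040274) spans chr5:3341485-3531008, both on the plus strand. Cdkn1a (ENSMUSG00000023067) is at chr17:29090976-29100727 and Cdkn1b (ENSMUSG00000003031) at chr6:134920401-134925513, both on the plus strand, and Cdkn2c (ENSMUSG00000028551) is at chr4:109660876-109667189 on the minus strand.

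The windows from 250 bases before to 50 bases after the start are shown for a cyclin and a kinase that fell together (Ccne1, Cdk4) and for an inhibitor that rose (Cdkn1a). They are RefSeq sequences on GRCm38.p6, at chr7:38107441-38107740 (minus strand), chr10:127063285-127063584 (plus strand) and chr17:29093519-29093818 (plus strand, the second of the starts listed for Cdkn1a), written 5′ to 3′ with GC boxes (GGGCGG) and the TCF letters CTTTGAT, on either strand, in capitals.
Ccne1: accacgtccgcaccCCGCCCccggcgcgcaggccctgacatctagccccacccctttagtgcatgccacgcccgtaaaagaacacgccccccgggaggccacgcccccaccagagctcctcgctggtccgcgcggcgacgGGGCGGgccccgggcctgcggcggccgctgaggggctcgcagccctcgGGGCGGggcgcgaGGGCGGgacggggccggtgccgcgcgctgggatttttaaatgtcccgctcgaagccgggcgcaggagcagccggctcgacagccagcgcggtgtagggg
Cdk4: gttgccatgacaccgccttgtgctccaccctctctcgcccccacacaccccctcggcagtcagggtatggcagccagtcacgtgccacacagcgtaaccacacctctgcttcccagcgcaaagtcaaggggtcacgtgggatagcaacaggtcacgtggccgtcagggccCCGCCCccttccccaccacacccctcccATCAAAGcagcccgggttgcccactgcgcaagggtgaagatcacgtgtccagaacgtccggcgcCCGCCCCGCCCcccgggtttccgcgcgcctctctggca
Cdkn1a: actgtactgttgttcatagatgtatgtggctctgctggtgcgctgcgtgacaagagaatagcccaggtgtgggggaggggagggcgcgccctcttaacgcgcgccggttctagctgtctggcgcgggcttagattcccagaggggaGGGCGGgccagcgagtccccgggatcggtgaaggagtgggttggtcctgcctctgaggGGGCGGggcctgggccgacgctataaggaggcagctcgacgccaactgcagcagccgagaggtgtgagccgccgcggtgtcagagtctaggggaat
RefSeq windows matched 7 of the 10 genes, with 10 windows in all, and Ccnd1, Ccnd2 and Ccne2 had no entry. A GC box was in 7 of these 10 windows, and in 35.7% of the 32851 mouse windows of this length. The TCF letters CTTTGAT were in the Cdk4 window, 52 bases before the start and on the minus strand, and 8.65% of all windows hold CTTTGAT or CTTTGAA. None of the 10 windows held the E2F letters TTTCCCGC, TTTCGCGC, TTTGCCGC or TTTGGCGC on either strand, which 2.26% of all windows hold.

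The RNA came from mouse fetal liver cells, taken directly from embryos or from cultured liver lobes, and the labels name no strain, transgene or deletion. Bulk libraries were made from pools of cells sorted for DLK1 (DLK+), a surface protein of hepatoblasts, 2 libraries for each day between E10.5 and E18.5 (9 stages). Smart-seq2 single cells from embryos (447 cells) were EpCAM+ cells annotated by the authors as cholangiocytes, EpCAM+ cells annotated as hepatoblast/hepatocyte, or DLK+ cells of that same annotation, from E10.5 to E17.5. The 82 explant cells came from E12.5 liver lobes kept for 2 days in medium with serum and EGF, with TPPB (0.5 µM, a protein kinase C agonist), with TPPB and U0126, with U0126 (10 µM, a MEK1/2 inhibitor) or with DMSO as control. A cell of E14.5 EpCAM+ set 3 carries the text of the explant culture protocol. Its other label fields are those of an embryo cell, and it was kept among the embryo cells. The series was designed to place in time the step by which hepatoblasts turn into hepatocytes, to follow both lineages, and to ask in explants whether MAPK signalling promotes cholangiocyte maturation. The labels do not say how many embryos or litters stand behind a library or a set of cells, so p-values measure only the spread between libraries or sets, which may be technical.

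Bulk libraries held 14385574 to 22791119 reads and cells 763480 to 2111839. Cells of a group that share a set number were summed, and the 42 embryo sums and 10 EpCAM+ explant sums of at least 2 cells, with 2338674 to 28130886 and 1935026 to 13737444 reads, are the replicates. Levels are normalised CPM (reads scaled to library size with TMM factors) unless TPM, which divides by gene length, is named. TPM was not scaled with TMM factors, so changes of TPM between groups can differ from those of CPM. A gene was called where its edgeR quasi-likelihood p, adjusted over all genes tested, was below 0.05. The 8 hepatoblast or hepatocyte markers summed to 38749.9 to 65136 CPM in E17.5 cholangiocyte sums and 388049.8 to 427317 CPM in E17.5 DLK+ sums. The 8 cholangiocyte markers summed to 7094 to 10601 CPM in these cholangiocyte sums and 115 to 143 CPM in these DLK+ sums. Markers of other cells moved with stage in the bulk libraries. Stellate or mesenchymal markers (8 genes) summed to 7.61 to 83.2 CPM at E18.5, against 564 to 747 CPM at E10.5, and to at most 16.6 CPM in the DLK+ sums of single cells. Red cell markers (6 genes) summed to 56.0 to 137 CPM at E18.5 and 5.59 to 8.09 CPM at E10.5, and other blood cell markers (8 genes) to 163 to 194 CPM at E18.5 and 11.6 to 15.4 CPM at E10.5. Endothelial markers (8 genes) summed to 80.1 to 149.8 CPM at E18.5 and 17.6 to 19.8 CPM at E10.5, and mesothelial markers (6 genes) to 1.18 to 9.11 CPM at E18.5 and 27.4 to 46.7 CPM at E10.5; their part in the bulk results was not tested. Some members share exon bases with a gene on the other strand (Ccnd1 with LTO1, Ccnd3 with Bysl, Ccne2 with Ints8, Cdk4 with Tspan31), and Ccnd3 has a processed pseudogene. The bulk kit keeps strand but whether strand was used in counting is not given in the sources used here, so reads in shared bases may have been split or lost.

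In bulk DLK+ cells, 9 of the 10 genes differed among stages, all but Cdk6, against 79.8% of all genes tested. At E18.5 against E10.5, Ccnd1, Ccnd2, Ccne1, Ccne2 and Cdk4 fell and the inhibitors Cdkn1a and Cdkn1b rose. These are 5 of 10 members called lower, where 32.5% of all genes were, and 2 called higher, where 32.6% were. Among the D-type cyclins, Ccnd1 was at 26.5 and 35.9 CPM at E18.5, against 484 and 472 CPM at E10.5, a log2 change of -3.94 ± 0.29 (SE, edgeR adjusted p = 2.2e-08). Its stage mean was lower at every stage than at the one before, and at E16.5 it was still at 160.2 and 257 CPM, with a log2 change of -1.20 ± 0.26 against E10.5 and of -2.74 ± 0.28 at E18.5 against E16.5. Ccnd2 fell earlier. It was at 216 and 213 CPM at E10.5, 93.6 CPM in both libraries at E11.5, 43.6 and 42.0 CPM at E13.5 and 6.47 and 7.73 CPM at E16.5, with 5.44 and 9.45 CPM at E18.5. Its log2 change was -4.91 ± 0.37 at E16.5 against E10.5 (edgeR adjusted p = 6e-08) and 0.05 ± 0.37 at E18.5 against E16.5 (edgeR adjusted p = 0.94).

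Ccnd3 took another course. It was at 74.0 and 72.5 CPM at E10.5, reached 181 and 178 CPM at E13.5, and was at 104 and 71.2 CPM at E18.5, where its libraries overlapped those of E10.5. It was higher at E16.5 than at E10.5 (log2 change 0.90 ± 0.16, edgeR adjusted p = 0.0003) and lower at E18.5 than at E16.5 (-0.64 ± 0.16, edgeR adjusted p = 0.0097), although the second call was lost without E18.5 library 2 (adjusted p = 0.080). On the per-length TPM scale, Ccnd3 made up 69.6 ± 10.54% of the summed D-type cyclin TPM at E18.5, against 10.3 ± 0.00446% at E10.5 (SD, n = 2 each). Ccnd1 held 26.3 ± 8.52% of it at E18.5, against 69.3 ± 0.107% at E10.5, and the sum itself was 35.4 ± 0.699 TPM at E18.5, against 708 ± 18.0 TPM at E10.5. The fall of this sum also holds the missing TMM scaling of TPM. Ccnd3 had a mean of 24.7 TPM at E18.5 and 72.9 TPM at E10.5, but of 87.7 and 73.2 normalised CPM. The shares were not tested, and they depend on the gene lengths. With the exon bases of the annotation in place of the deposited lengths, an alternative added after seeing the data, Ccnd3 made up 57.1 ± 12.1% at E18.5, against 6.29 ± 0.00456% at E10.5. In bulk samples, fewer cells with a transcript and less RNA per cell cannot be told apart.

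Of the E-type cyclins, Ccne1 stayed between 100.2 and 126.2 CPM in all 8 libraries from E10.5 to E13.5, then was at 46.1 and 66.5 CPM at E16.5 and at 5.98 and 11.4 CPM at E18.5. Its log2 change at E18.5 against E10.5 was -3.69 ± 0.26 (edgeR adjusted p = 1.6e-08). Ccne2 was at 9.42 and 7.99 CPM at E18.5, against 45.0 and 49.5 CPM at E10.5 (-2.44 ± 0.23, edgeR adjusted p = 3.3e-07), but it also dipped to 11.2 and 9.98 CPM at E13.5 between 38.9 and 25.2 CPM at E12.5 and 26.6 and 29.0 CPM at E14.5. The dip was in both E13.5 libraries and was not tested. The E13.5 sums of single DLK+ cells held 71.3, 59.6 and 20.1 CPM. Without the sums of the days before and after, these do not show whether single cells share the dip. Its partner on the other strand, Ints8, changed by -0.44 ± 0.13 at E18.5 against E10.5.

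The kinase genes differed in course. Cdk4 was at 367 and 335 CPM at E10.5, at 151 and 175 CPM at E16.5 and at 85.4 and 91.9 CPM at E18.5. It fell at each step tested, with log2 changes of -1.11 ± 0.16 at E16.5 against E10.5 and -0.88 ± 0.16 at E18.5 against E16.5 (edgeR adjusted p = 4.8e-05 and 0.0011). Tspan31, which shares 641 exon bases with Cdk4, moved the other way, by 1.73 ± 0.13 at E18.5 against E10.5. Cdk6 lay between 10.2 and 27.4 CPM in all 18 libraries, and no stage comparison called it (edgeR adjusted p = 0.55 at E18.5 against E10.5 and 0.19 over all stages).

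The inhibitors rose at different stages. Cdkn1a, which lay between 4.47 and 8.15 CPM in the 12 libraries from E10.5 to E15.5, was at 13.1 and 6.40 CPM at E16.5, 36.3 and 38.7 CPM at E17.5 and 78.3 and 96.0 CPM at E18.5. Its log2 change was 3.16 ± 0.30 at E18.5 against E16.5 and 3.76 ± 0.30 at E18.5 against E10.5 (edgeR adjusted p = 2e-06 and 5.1e-08). Cdkn2c, at low levels throughout, was at 0.62 and 0.90 CPM at E10.5 and increased to 9.41 and 8.57 CPM at E16.5, then was at 1.42 and 3.63 CPM at E17.5 and at 1.09 and 1.46 CPM at E18.5. It was called higher at E16.5 than at E10.5 (3.56 ± 0.44, edgeR adjusted p = 9e-06) and lower at E18.5 than at E16.5 (-2.82 ± 0.46, edgeR adjusted p = 0.00033). Cdkn1b was at 53 to 78.6 CPM in the 10 libraries from E14.5 on and at 31.3 to 48.2 CPM in the 8 earlier ones. This split was chosen from these same values and was not tested. The log2 change of Cdkn1b was 0.94 ± 0.15 at E16.5 against E10.5 and 0.68 ± 0.15 at E18.5 against E10.5 (edgeR adjusted p = 9.7e-05 and 0.0011).

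**Figure D1:**
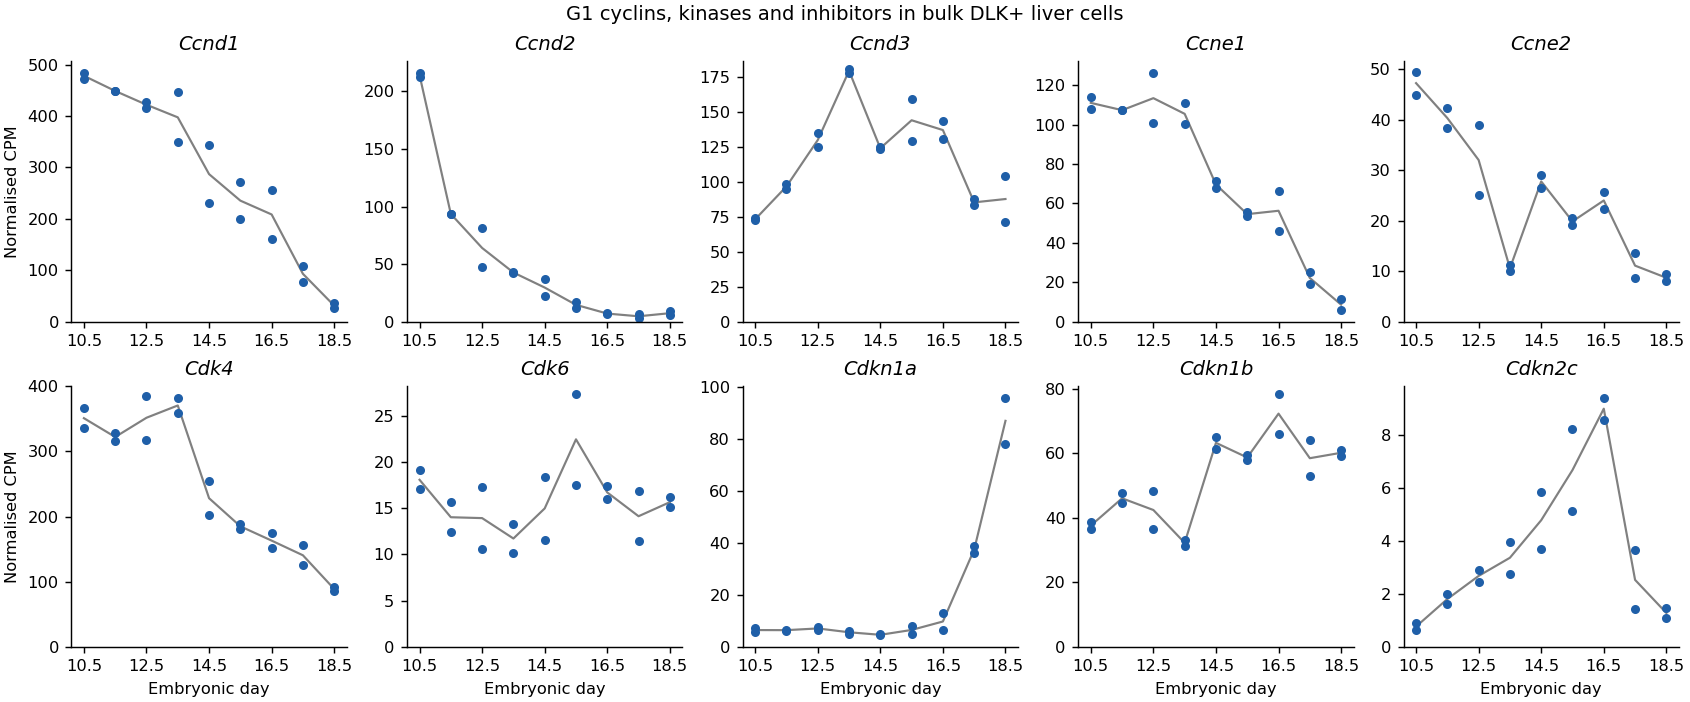
Normalised CPM (y axis, from 0) of the 10 genes in bulk DLK+ cells by embryonic day (x axis); each point is 1 library and the line joins the means of the 2 libraries of a stage. Ccnd2 falls from E10.5 on, Ccnd1 and Ccne1 fall mostly after E13.5, Ccnd3 peaks at E13.5, Cdkn2c peaks at E16.5 and Cdkn1a rises after E16.5.

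By comparison, 3 members were called higher and 5 lower at E16.5 against E10.5, where 29.6% of all genes were called higher and 27.8% lower. At E18.5 against E16.5 the members called were 1 higher and 6 lower, against 13.1% and 13.2% of all genes. Other genes of the same steps were counted beside the members. Of 16 E2F and replication genes, 16 fell at E18.5 against E10.5, among them the helicase subunit Mcm7 (-2.52 ± 0.17) and the ribonucleotide reductase subunit Rrm2 (-2.83 ± 0.22), with a list median of -2.53 against -0.02 over all genes. All 16 mitosis genes fell too, such as Top2a (-4.26 ± 0.31) and Cdk1 (-3.23 ± 0.19), with a median of -3.98. At E16.5 against E10.5, however, 9 of the 16 replication genes and 4 of the 16 mitosis genes were called lower and 1 of each higher, with medians of -0.54 and -0.31. Of 24 tested G1 and S regulators that are not members, 16 fell and 3 rose at E18.5 against E10.5, among them Skp2 (-3.83 ± 0.22), whose product marks p27 for destruction, and Tfdp1, a partner of E2F factors (-1.95 ± 0.17). Of 11 p53 target genes tested, 4 rose and 4 fell in that comparison, including Btg2 (3.58 ± 0.49) and Bax (-1.05 ± 0.23). The 12 dissociation stress genes summed to 419.8 to 1371 CPM at E18.5, against 88.1 to 303 CPM at E10.5; whether this bears on the level of Cdkn1a was not tested.

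In single DLK+ cells, the 5 members that fell in bulk were lower at E17.5 than at E10.5, and Ccnd3 was lower as well. The median over all genes tested was -0.13 in this comparison. At E17.5 against E10.5, 6 members were called lower, where 15.2% of 16838 genes were, and 1 was called higher, where 14.2% were. Ccnd1 was at 37.2, 45.3, 52.1 and 36.9 CPM in the E17.5 sums, against 331, 373 and 381 CPM in the E10.5 sums, and the groups do not overlap (log2 change -3.08 ± 0.17, edgeR adjusted p = 5.1e-15). Ccnd2 was nearly gone at E17.5, where the 4 sums of 35 cells held 3, 2, 0 and 1 reads. Without normalisation that is 0.151 CPM over the pooled 39609800 reads (exact Poisson 95% interval 0.0556 to 0.33 CPM, counting error only), against 329.9 CPM over the pooled E10.5 sums. In normalised CPM the E17.5 sums were at or below 0.394, against 184, 225 and 368 in the E10.5 sums. With so few reads no fold is given, and the edgeR adjusted p was 1.3e-08. Ccnd3 was at 91.0, 59.3, 92.2 and 76.6 CPM at E17.5, against 132, 134 and 102 CPM at E10.5 (-0.62 ± 0.17, edgeR adjusted p = 0.0049). Bulk libraries of the same days went the other way for Ccnd3, with 87.5 and 83.1 CPM at E17.5 and 74.0 and 72.5 CPM at E10.5. That bulk comparison was not tested.

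Ccne1 was at 7.76, 28.0, 19 and 29.9 CPM at E17.5, against 209, 251 and 295 CPM at E10.5 (-3.59 ± 0.52, edgeR adjusted p = 1.9e-06), and Ccne2 fell by 3.40 ± 0.72 on the log2 scale (edgeR adjusted p = 0.00042). Cdk4 was at 265, 331, 259 and 162 CPM at E17.5, against 802, 785 and 782 CPM at E10.5 (-1.64 ± 0.15, edgeR adjusted p = 5.3e-10). Neither Ccne gene nor Cdk4 overlapped between these groups. Cdkn1a was at 19.3, 22.8, 42.0 and 56.9 CPM at E17.5, against 8.81, 8.10 and 12.4 CPM at E10.5, without overlap (1.85 ± 0.67, edgeR adjusted p = 0.036). Its call was lost, at adjusted p of 0.063 to 0.11, when any of the 3 E10.5 sums or E17.5 set 3 or 4 was left out. The 12 dissociation stress genes summed to 224 to 363 CPM in the E17.5 sums and 51.1 to 62.8 CPM in the E10.5 sums, and their part in this result was not tested. Cdkn1b missed the threshold (0.97 ± 0.38, edgeR adjusted p = 0.052), but it passed by DESeq2 (1.03, DESeq2 adjusted p = 0.019), with RLE size factors (1.02, edgeR adjusted p = 0.039), with the replicate block (1.09, edgeR adjusted p = 0.015) and with E17.5 set 4 left out (1.24, edgeR adjusted p = 0.012). Cdk6 changed by 0.40 ± 0.23 and was not called. Cdkn2c had 13 reads in the 4 E17.5 sums and 28 reads in the 3 E10.5 sums, too few to give a change. Its bulk peak at E16.5 has no single-cell stage to compare with. Bulk libraries already held 3.70 and 5.86 CPM at E14.5 and 5.14 and 8.21 CPM at E15.5. The pooled DLK+ sums, without normalisation, held 0.308 CPM at E14.5 (10 reads) and 1.88 CPM at E15.5 (82 reads), against 0.492 CPM at E10.5.

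At E13.5 against E10.5 the only member called was Ccnd3, which was at 221, 201 and 177 CPM, against 132, 134 and 102 CPM (0.71 ± 0.18, edgeR adjusted p = 0.010). That is 1 member higher, where 6.25% of all genes were called, and 0 lower, where 1.27% were. The call was lost without E10.5 set 3 (adjusted p = 0.10) or E13.5 set 1 (adjusted p = 0.065). Ccnd2 was at 87.7, 83.9 and 27.3 CPM at E13.5, also below the E10.5 sums, but did not pass (-1.96 ± 0.74, edgeR adjusted p = 0.12). At E17.5 against E13.5, 6 members were called lower (8.33% of all genes) and 1 higher (7.04%). Ccnd1 fell by 2.95 ± 0.17 and Ccnd3 by 1.32 ± 0.17 on the log2 scale over this interval (edgeR adjusted p = 6.8e-14 and 8.7e-07). Cdkn1a, the member called higher, changed by 2.36 ± 0.69 (edgeR adjusted p = 0.017). Its call was lost without E13.5 set 2 or 3 or E17.5 set 4, and that of Ccne2 (-2.60 ± 0.71, edgeR adjusted p = 0.0099) without E13.5 set 1.

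Within DLK+ cells the balance of the D-type cyclins moved towards Ccnd3 with stage. With the deposited gene lengths, Ccnd3 had the highest TPM of the 3 in 4 of 54 cells at E10.5, 26 of 39 cells at E15.5 and 28 of 35 cells at E17.5, while Ccnd1 led in 47 of 54, 13 of 39 and 7 of 35 of these cells. As a share of the summed TPM, Ccnd3 made up 64 ± 6.17% at E17.5 (SD, n = 4) and 18.6 ± 4.38% at E10.5 (SD, n = 3), and the sum was 31.7 ± 4.72 TPM at E17.5, against 427 ± 69.3 TPM at E10.5. TPM levels here, unlike shares, are also affected by the missing TMM scaling. With annotation exon bases as lengths, Ccnd3 and Ccnd1 were about level at E17.5, at 49.8 ± 6.61% and 50.1 ± 6.58%, against 12.0 ± 2.88% and 65.2 ± 3.16% at E10.5. Ccnd3 then led in 0 of 54 cells at E10.5, 17 of 39 at E15.5 and 25 of 35 at E17.5. Reads of Ccnd2 were found in 54 of 54 E10.5 cells, 29 of 39 E13.5 cells, 11 of 27 E14.5 cells, 11 of 39 E15.5 cells and 6 of 35 E17.5 cells (17.1%, exact binomial 95% interval 6.56 to 33.6%). The interval treats cells pooled over sets as independent and leaves out the spread between sets. With each cell thinned to 700000 reads, a depth that every cell reached, the E17.5 share was 11.4%, and no E17.5 cell held more than 0.269 TPM. Ccnd1 had reads in 24 of 35 E17.5 cells with a median of 3.61 TPM, against reads in 54 of 54 E10.5 cells with a median of 226 TPM.

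Cholangiocytes held more of the D-type cyclins than DLK+ cells. The cell annotation is the authors', and whether it used these genes is not given in the sources used here. With E14.5, E15.5 and E17.5 weighted equally, 5 members were called higher in EpCAM+ cholangiocytes than in DLK+ cells of the same days (Ccnd1, Ccnd2, Ccnd3, Cdk4 and Cdkn1a), where 19% of all genes were, and 0 lower, where 16% were. The median over all genes tested was 0.16. The 9 cholangiocyte sums held 247 to 428 CPM of Ccnd1 (median 368) and the 10 DLK+ sums 36.9 to 242 CPM (median 149), without overlap (log2 change 1.63 ± 0.10, edgeR adjusted p = 1.4e-14). Ccnd2 lay between 11.8 and 450.2 CPM in cholangiocyte sums (median 213) and between 0 and 20.9 CPM in DLK+ sums (median 4.16). The groups overlapped in 1 cholangiocyte sum, E14.5 set 1, and the edgeR adjusted p was 1.3e-10; no fold is given, since the E17.5 DLK+ sums held 6 reads. Cdk4 lay between 419 and 789 CPM in cholangiocytes (median 637) and between 162 and 464 CPM in DLK+ cells (median 326), with a slight overlap and a log2 change of 0.95 ± 0.09 (edgeR adjusted p = 9.4e-10). Its opposite-strand partner Tspan31 changed by -0.70 ± 0.10.

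Ccnd3 was higher in cholangiocytes by a small margin (0.37 ± 0.10, edgeR adjusted p = 0.0049), and Cdkn1a, at 11.8 to 48.9 CPM in cholangiocytes and 1.32 to 56.9 CPM in DLK+ cells, by 1.03 ± 0.39 (edgeR adjusted p = 0.038). At E17.5 the Cdkn1a levels of all cholangiocyte sums lay within the range of the DLK+ sums. The Cdkn1a call was lost with at least 5 cells per sum (adjusted p = 0.075), with the replicate block (adjusted p = 0.10) and, at adjusted p of 0.050 to 0.097, in 10 of the 19 fits that left out a sum: cholangiocyte set 3 or DLK+ set 2 of E14.5, cholangiocyte set 2 or 3 or DLK+ set 3 or 4 of E15.5, and cholangiocyte set 1 or 4 or DLK+ set 1 or 2 of E17.5. The E-type cyclins, Cdk6, Cdkn1b and Cdkn2c were not called. Ccne1 was at 53.7 ± 51.8 CPM in cholangiocytes and 74.2 ± 58.5 CPM in DLK+ cells (SD, n = 9 and 10 sums). Without E14.5 cholangiocyte set 2, which held 184 CPM, it was called lower in cholangiocytes (-0.73, edgeR adjusted p = 0.043). Beside the members, 5 of 16 replication genes, among them Mcm6 (0.59 ± 0.15) and Mcm7 (0.82 ± 0.18), were called higher and 1 lower, with a list median of 0.44. Of 16 mitosis genes 2 rose, Cenpe (1.73 ± 0.55) and Kif23 (2.44 ± 0.66). Of 11 p53 target genes 5 rose, with Plk2 (4.01 ± 0.44) and Trp53inp1 (3.17 ± 0.49) among them, and 0 fell. Of 11 dissociation stress genes tested, 4 rose and 1 fell, with a list median of 1.11. All 12 found summed to 286 to 860.03 CPM in the cholangiocyte sums and to 134 to 369 CPM in the DLK+ sums, and their part in the Cdkn1a result was not tested.

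**Figure D2:**
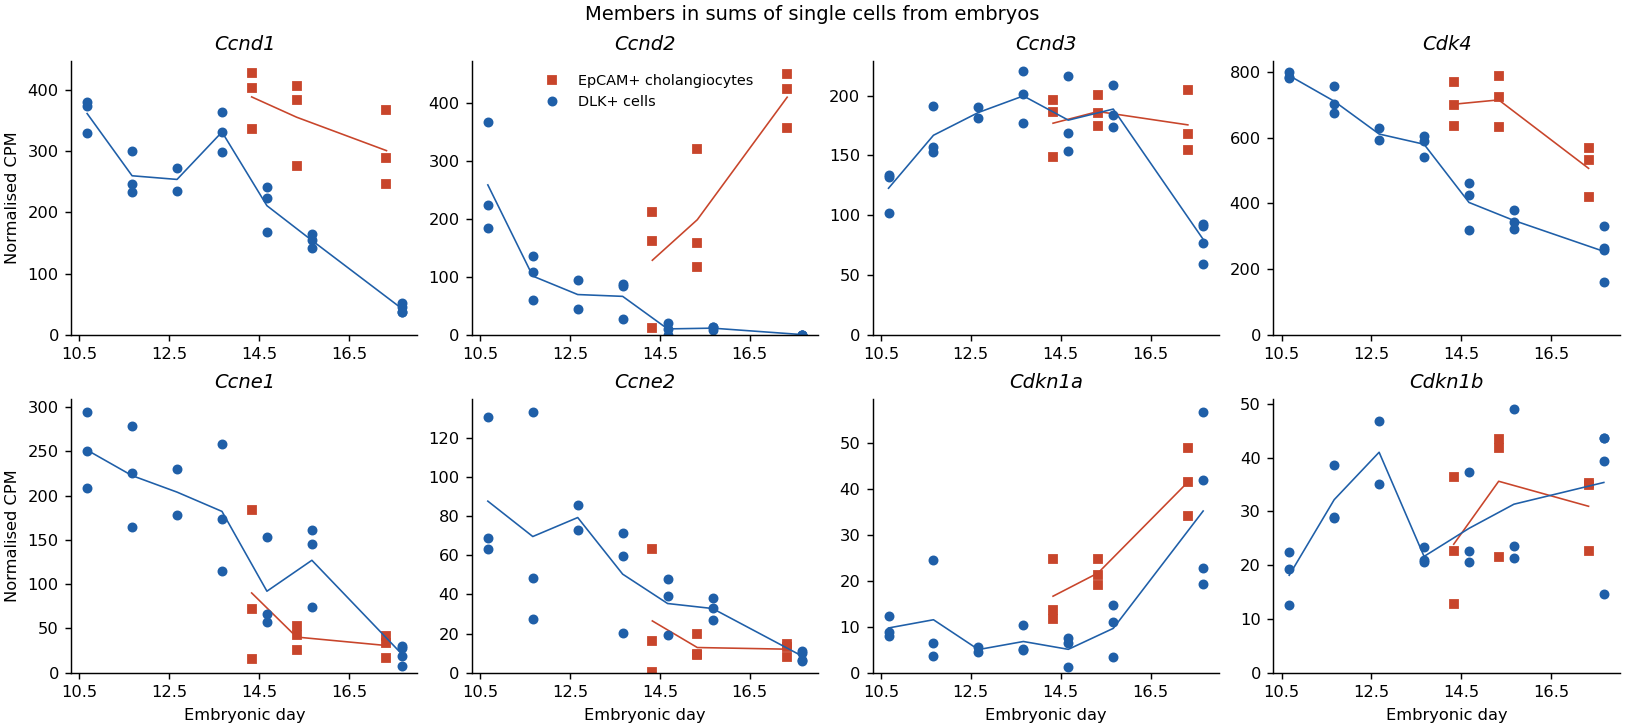
Normalised CPM (y axes, from 0) of 8 members by embryonic day (x axes) in sums of EpCAM+ cholangiocytes (red squares, E14.5, E15.5 and E17.5) and of DLK+ cells (blue circles, E10.5 to E17.5); each point is 1 set and lines join group means, with the groups set slightly apart on the x axis. Ccnd1, Ccnd2 and Cdk4 are higher in cholangiocytes, and at E17.5 the Ccnd2 sums lie between 357 and 450.2 CPM in cholangiocytes and at or below 0.394 CPM in DLK+ cells.

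The difference between the lineages changed with age for the D-type cyclins. At E17.5 against E14.5, the log2 difference between cholangiocytes and DLK+ cells was larger by 1.93 ± 0.24 for Ccnd1 (edgeR adjusted p = 4e-06) and by 1.16 ± 0.25 for Ccnd3 (edgeR adjusted p = 0.0052), and that of Ccnd2 also differed (edgeR adjusted p = 0.0025). These 3 members were called higher in this test of the difference, where 1.1% of all genes were, and 0 lower, where 2.11% were. Ccnd3 was at 176 ± 25.8 CPM in cholangiocytes and 79.8 ± 15.4 CPM in DLK+ cells at E17.5 (SD, n = 3 and 4), but at 177 ± 25.2 and 179 ± 32.8 CPM in the same 2 groups at E14.5 (SD, n = 3 each). Ccnd1 was at 301 ± 61.2 CPM in cholangiocytes and 42.9 ± 7.26 CPM in DLK+ cells at E17.5, against 389 ± 47.5 and 211 ± 38.2 CPM in these groups at E14.5. Other genes called in this test included Skp2 (2.83 ± 0.62) and Tfdp1 (1.56 ± 0.40) of the G1 and S regulators and Mcm2 (1.91 ± 0.44) and Mcm4 (2.24 ± 0.52) of the replication genes.

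Among cholangiocytes alone, no member was called at E17.5 against E14.5 by edgeR, where 1.16% of all genes were called higher and 2.13% lower. At an unadjusted p below 0.05, 5 of the 10 members passed. The share of all genes at that looser threshold is not given here, so this count has no background to be read against. DESeq2 called 2 members, Ccne1 (-1.53, DESeq2 adjusted p = 0.042) and Cdk4 (-0.46, DESeq2 adjusted p = 0.040). Ccnd2 was at 424, 357 and 450.2 CPM at E17.5, against 11.8, 161 and 213 CPM at E14.5, without overlap (1.67 ± 0.74, edgeR adjusted p = 0.25). Cdkn1a was at 48.9, 34.1 and 41.7 CPM at E17.5, against 11.8, 13.6 and 24.7 CPM at E14.5, also without overlap (1.31 ± 0.69, edgeR adjusted p = 0.34). Ccne1 was at 33.5, 41.4 and 17.2 CPM at E17.5 and 15.4, 184 and 71.4 CPM at E14.5, and its call under edgeR appeared without E14.5 set 1 (-2.06, adjusted p = 0.012). Cdk6 was called without E14.5 set 3 (1.08, edgeR adjusted p = 0.013).

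The makeup of the D-type cyclins differed between cholangiocytes and DLK+ cells at E17.5. Ccnd2 made up 36.5 ± 5.38% of D-type cyclin TPM in E17.5 cholangiocytes (SD, n = 3), against 0.143 ± 0.104% in E17.5 DLK+ cells (SD, n = 4), and 11.8 ± 9.18% in E14.5 cholangiocytes, against 1.60 ± 1.71% in E14.5 DLK+ cells (SD, n = 3 each). Gate and annotation both differ between these groups. E14.5 EpCAM+ cells of hepatoblast/hepatocyte annotation, of the same gate and day as the E14.5 cholangiocytes, held 7.31 ± 6.39% (SD, n = 3). Their sums, at 2.47 to 14.6%, overlapped those of both other E14.5 groups. The summed D-type cyclin level, without TMM scaling, was 416 ± 21.6 TPM in E17.5 cholangiocytes and 31.7 ± 4.72 TPM in E17.5 DLK+ cells. With annotation exon bases as lengths, the Ccnd2 share at E17.5 was 34.4 ± 5.85% in cholangiocytes and 0.152 ± 0.108% in DLK+ cells. Cell by cell, Ccnd2 led in 11 of 34 E17.5 cholangiocytes, Ccnd1 in 15 and Ccnd3 in 8 with the deposited lengths, and in 6, 26 and 2 with annotation exon bases. Reads of Ccnd2 were found in 29 of 34 of these cells (85.3%, exact binomial 95% interval 68.9 to 95%). This interval treats cells pooled over sets as independent and leaves out the spread between sets. At the earlier stages, with the deposited lengths, Ccnd2 led in 0 of 17 cholangiocytes at E14.5 and in 4 of 36 at E15.5. The few EpCAM+ cells annotated as cholangiocytes before E14.5 showed Ccnd2 reads in 0 of 2 cells at E11.5, 0 of 3 at E12.5 and 4 of 10 at E13.5, too few for a test.

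**Figure D3:**
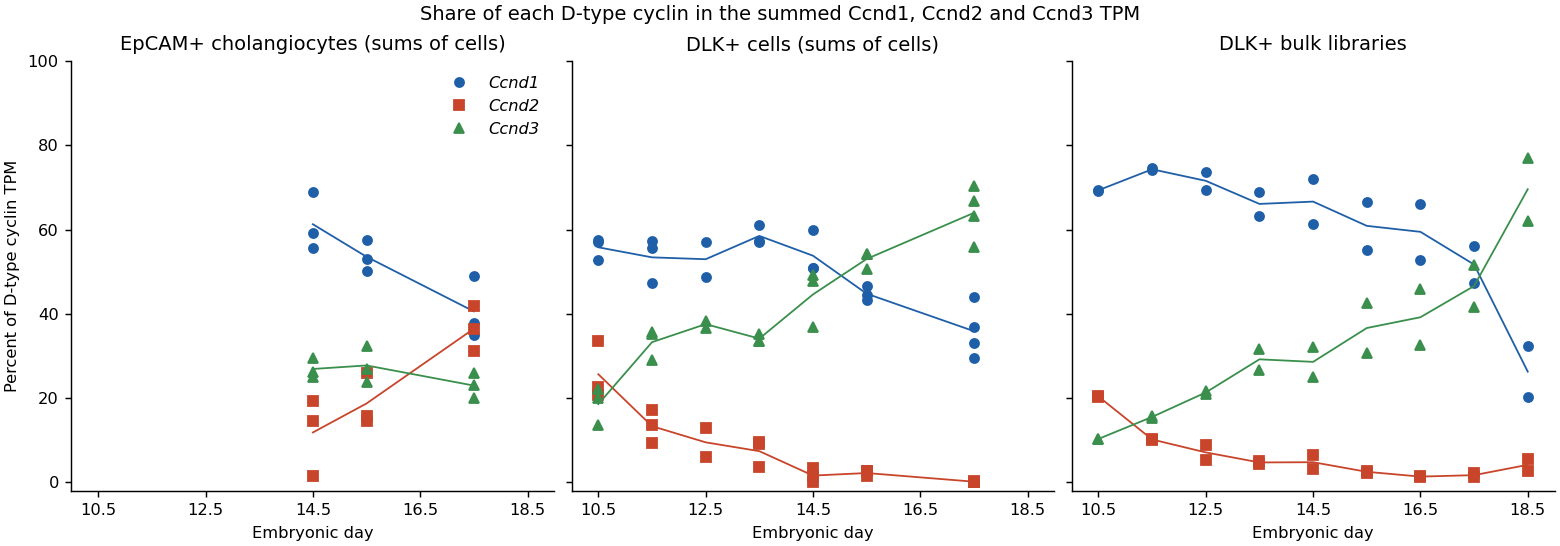
Percent of the summed Ccnd1, Ccnd2 and Ccnd3 TPM held by each (y axis, deposited gene lengths) by embryonic day (x axis), in sums of EpCAM+ cholangiocytes, sums of DLK+ cells and DLK+ bulk libraries; each point is 1 sum or library and lines join the means. In DLK+ cells the share of Ccnd3 climbs to 64% at E17.5 in sums and 69.6% at E18.5 in bulk, while in cholangiocytes Ccnd2 reaches 36.5% at E17.5.

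**Figure D4:**
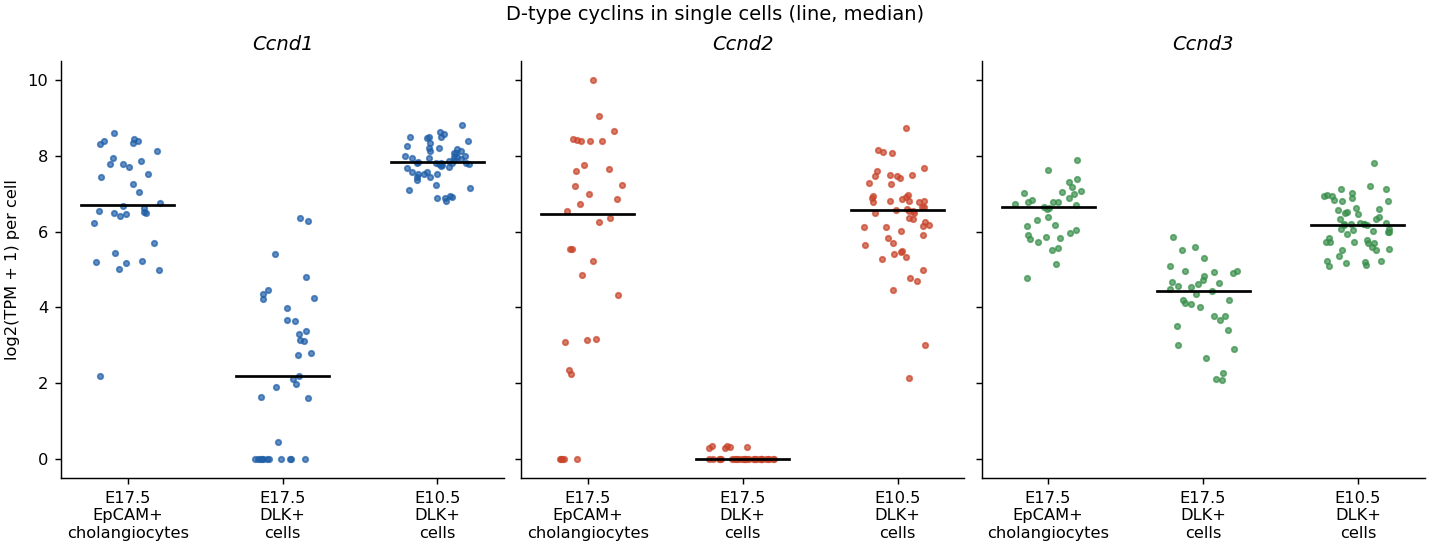
Levels of the D-type cyclins in single cells as log2(TPM + 1) (y axis), each dot a cell and each line the median, for 34 E17.5 EpCAM+ cholangiocytes, 35 E17.5 DLK+ cells and 54 E10.5 DLK+ cells. Ccnd2 spreads widely among E17.5 cholangiocytes, is at or below 0.269 TPM in all E17.5 DLK+ cells and is present in all E10.5 cells.

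Between the gates, no difference in these genes was called among cells of hepatoblast/hepatocyte annotation. In EpCAM+ against DLK+ cells, averaged over E11.5 to E14.5, edgeR called 0 of 10 members in either direction, where it called 0.0238% of all genes higher and 0% lower. At an unadjusted p below 0.05, 0 of the 10 members passed, and DESeq2 called 0 as well. Cdk4 lay between 378 and 649.6 CPM in 9 EpCAM+ sums (median 562) and between 319.7 and 757 CPM in 11 DLK+ sums (median 594), and its log2 change was -0.07 ± 0.09. Ccnd1 changed by -0.09 ± 0.10 and Ccnd3 by -0.08 ± 0.10, while the changes of Ccnd2 (0.17 ± 0.41) and Ccne2 (-0.23 ± 0.40) were known less closely. A p that misses the threshold does not show that the gates are alike.

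Liver explants were used to change signalling while the lineages part. In EpCAM+ explant cells, Ccnd2 was at 466 and 419 CPM with TPPB (sets 1 and 2), against 31.7, 40.6, 77.0 and 51.4 CPM in the 4 control sets, without overlap (log2 change 3.61 ± 0.74, edgeR adjusted p = 0.040). Sets 1 and 2 and sets 3 and 4 are described in different words in the labels, and within sets 1 and 2 alone the controls held 31.7 and 40.6 CPM. Ccnd2 was 1 member called higher, where 0.08% of 13749 genes were, and 0 members were called lower, where 1.89% were. The call was lost when any of the 6 sums was left out, at adjusted p of 0.053 to 0.29 with log2 changes of 3.45 to 3.80, and with at least 5 cells per sum (3.45, edgeR adjusted p = 0.11). Ccnd1 was at 228 and 224 CPM with TPPB, against 114, 53, 50.4 and 88.3 CPM in control, without overlap, but did not pass (1.44 ± 0.63, edgeR adjusted p = 0.35). Ccnd3, Cdk4, Cdk6 and Cdkn1a did not overlap between TPPB and control either and were not called. The share of all genes without overlap in this comparison was not counted. The lack of overlap is therefore no result about the members. Cdkn1a was at 406 and 380.1 CPM with TPPB, against 181, 166, 154 and 335 CPM in control. The median over all genes was 0.13 in this comparison.

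These groups also differed in cell makeup, since all EpCAM+ cells were summed whatever their annotation. The 8 hepatoblast or hepatocyte markers summed to 472 to 1813 CPM with TPPB and 72918 to 229405 CPM in control, and the 8 cholangiocyte markers to 11363 to 12479 CPM with TPPB and 289 to 7284 CPM in control. Restricted to explant cells annotated as cholangiocytes, the log2 change of Ccnd2 was 3.46 ± 0.66 (edgeR adjusted p = 0.036) and that of Ccnd1 was 1.21 ± 0.62 (edgeR adjusted p = 0.43). No sum was left out in turn for this restricted set, so whether its Ccnd2 call depends on a single sum was not tested. Dissociation stress genes summed to 913 to 2245 CPM with TPPB and to 1650.2 to 2755 CPM in control, against at most 860.0 CPM in any embryo sum. Cdkn1a, at 154 to 335 CPM in the 4 control sums, was above every embryo sum (at most 56.9 CPM); what part culture or dissociation has in this was not tested.

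With U0126 alone, no member was called by edgeR against control, where 0% of genes were called in either direction. Of the 9 members tested, 2 had an unadjusted p below 0.05, and DESeq2 called 0. The numbers of all genes at that unadjusted threshold are given further below for both comparisons with U0126. Ccnd3 was at 189 and 87.5 CPM with U0126, against 96.7, 74.8, 48.3 and 49.7 CPM in control, with overlap (1.5 ± 0.47, edgeR adjusted p = 1); both U0126 sums are from sets 3 and 4, and within these the control sums, 48.3 and 49.7 CPM, were lower. Cdkn1a was at 17.503 and 99.6 CPM with U0126, below all 4 control sums (-2.06 ± 0.83, edgeR adjusted p = 1), and it was called without the filter on low counts (-2.02, adjusted p = 0.028). Ccnd1 was at 98.7 and 34.4 CPM with U0126, the lower of which was below all 4 control sums. With TPPB and U0126 together against U0126 alone, 0% of genes and 0 members were called, 1 member had an unadjusted p below 0.05, and DESeq2 called 0. Ccnd2 was at 11.3 and 50.4 CPM with both agents, against 47.4 and 134 CPM with U0126 (-1.55 ± 0.69, edgeR adjusted p = 1), and Ccnd1 at 58.8 and 27.4 CPM, against 98.7 and 34.4 CPM. Cdkn2c was not tested in explants, where 1 read was found in all 10 sums. In DLK+ explant cells, with 1 sum of 6 cells for TPPB and sums of 1 and 5 cells for control and hence no test, Ccnd2 was at 37.3 plain CPM with TPPB and at 41.0 and 37.1 plain CPM in control.

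**Figure D5:**
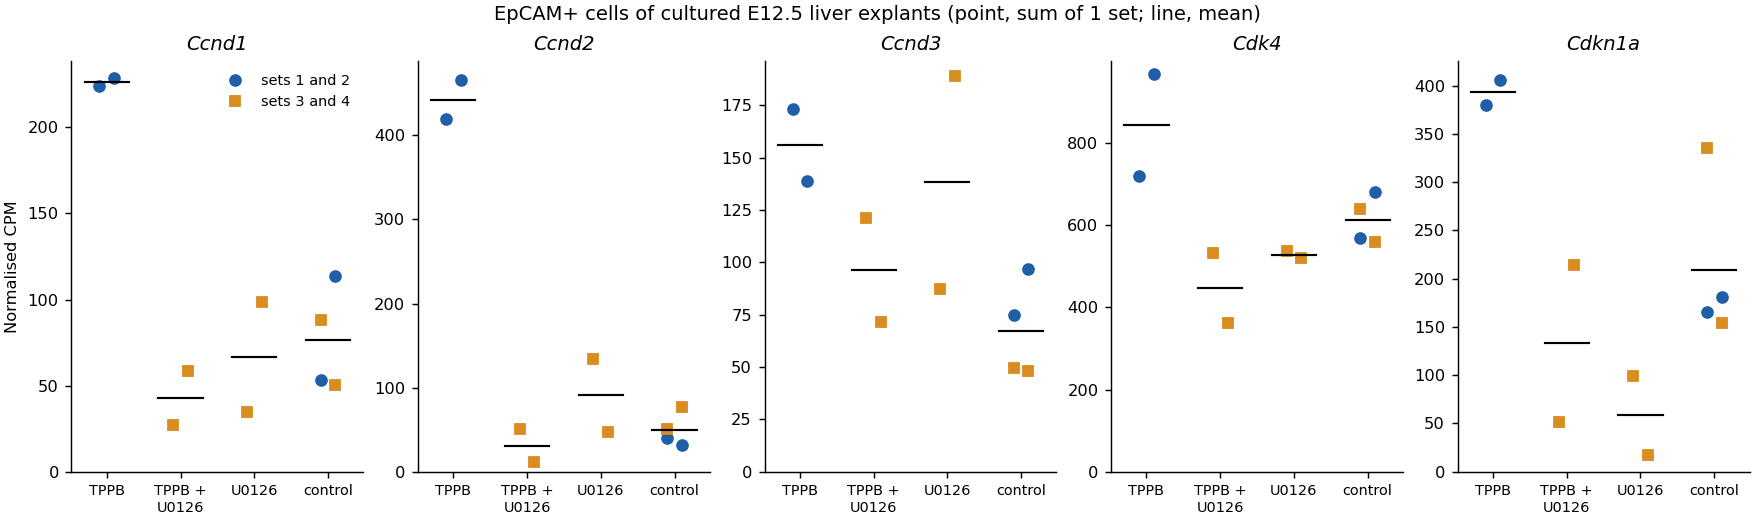
Normalised CPM (y axes, from 0) of 5 members in EpCAM+ cells of explants by treatment (x axes); each point is 1 set, blue circles sets 1 and 2, orange squares sets 3 and 4, and lines are means. The TPPB points lie at 419 and 466 CPM for Ccnd2 and at 224 and 228 CPM for Ccnd1. The points of TPPB with U0126 lie at or below 58.8 CPM for these genes.

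Across the 42 embryo sums, genes with the most similar course were sought among 7938 genes whose mean reached 10 CPM, by Pearson's r of log2(CPM + 1), as a description. Nearest to Ccnd1 were Fscn1 (0.91), Marcksl1 (0.90) and Pcbp4 (0.90). Ccnd2 was most like Fam60a (0.87), Mycn (0.86) and Cfl1 (0.84), and Cdk4 most like Mdk (0.91), Sumo2 (0.88) and Tspan3 (0.87). Ccne1 was most like Dek (0.89), Hn1l (0.86) and the replication gene Pcna (0.86). Ccne2 was most like Ccne1 (0.86), Slbp (0.83) and Hat1 (0.83). The closest courses to Ccnd3 were those of Cyba (0.81), Tmem246 (0.79) and Tmem86a (0.77). For Cdk6, Cdkn1a, Cdkn1b and Cdkn2c the highest r was 0.64, 0.74, 0.59 and 0.53, with Cd47, Gpbp1l1, Marf1 and Mat2b. The sums share stages and depth with each other, so r also holds what stages have in common.

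Within groups of 21 to 54 embryo cells, stage, gate and annotation are held, but cells of different sets are pooled. The members differed in how they followed the replication genes, with ranges that overlap. Spearman's rho of each gene with the mean log2(TPM + 1) of the 16 replication genes, given as a description, was 0.36 to 0.90 for Ccne1 and 0.28 to 0.80 for Ccne2 in the 11 groups. It was 0.09 to 0.70 for Ccnd3, -0.03 to 0.70 for Cdk4, -0.10 to 0.66 for Ccnd2 and -0.15 to 0.57 for Cdkn2c. For Ccnd1 it was -0.18 to 0.50, for Cdk6 -0.23 to 0.45, for Cdkn1a -0.23 to 0.46 and for Cdkn1b -0.33 to 0.23. With the 16 mitosis genes, rho had both signs among the groups, at -0.73 to 0.42 for Ccne1, -0.78 to 0.41 for Ccne2 and -0.14 to 0.42 for Cdkn1b. These values come from 1 library per cell and share its depth.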

How the data were processed

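The values are raw read counts per gene that the authors deposited for 18 bulk libraries and 529 single cells, with 1 column per library. TopHat2 2.1.0, Bowtie2, HTSeq 0.6.0 and the builds GRCm38 and mm10 are named in the submitters' processing notes, without their settings; Smart-seq2 has no molecular identifiers, so intervals cover counting error only. The 10 genes and all gene lists were chosen with earlier results of these data known. The 92 spike-in rows were left out of library sizes. Cells of a group and set number were summed. The deposited counts were tested with edgeR 4.0.16 (quasi-likelihood, TMM, minimum count 10, R 4.3.3), with Benjamini-Hochberg adjustment over all genes and an SE of the log2 change over the square root of F. Bulk libraries, embryo sums and EpCAM+ explant sums were fitted separately, and explants had treatment and the split between sets 1 and 2 and sets 3 and 4 as terms. TPM was recomputed from counts and the deposited gene lengths. Alternatives were DESeq2 1.42.0, RLE size factors, no filter on low counts, at least 5 cells per sum, a replicate block, annotation exon bases as gene length for the D-type cyclin shares (added after seeing the data), and leaving out each library or sum, with the filter and dispersion trend held. Fits were tested on simulated data. From each list, up to 4 called genes of the highest mean CPM could be named. Single cells held a median of 1098050 reads. The deposited TPM tables were not used.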

Additional observations from a re-analysis of the deposited data

Results flagged for a closer look

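Among 18 gene groups of 4 sums examined with Dixon's ratio, where chance gives about 1 in 20, a single sum stood apart in the following. Cdkn1b, the p27 inhibitor, was at 14.6 CPM in E17.5 DLK+ set 4, against 39.5 to 43.7 CPM in the other 3 sets. Cdkn1a, the p21 inhibitor, was at 335 CPM in control EpCAM+ explant set 4, against 154 to 181 CPM in the other 3 control sets. Cdkn2c, the p18INK4c inhibitor, was at 1.28 CPM in E17.5 DLK+ set 1, from 13 reads, and at 0 in the other 3 sets; with the others tied at 0 any value passes the ratio, so it says nothing here.

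The difference between cholangiocytes and DLK+ cells was larger at E17.5 than at E14.5 for all 3 D-type cyclins by a test of the difference itself, by 1.93 on the log2 scale for Ccnd1, 6.996 for Ccnd2 and 1.16 for Ccnd3. The Ccnd2 value depends on the 6 reads of the E17.5 DLK+ sums and is no bound on the fold.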

How the results depend on the processing

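Of 46 called changes of the members, 39 kept their direction and call under every alternative run, and of 541 recomputed values 510 kept the call, 31 lost it and 0 reversed. Of 81 uncalled changes with 1135 recomputed values, 15 gained a call. At E13.5 against E10.5 the members called were 1, against 2 by DESeq2 (Cdk4 added) and 0 to 1 without a sum. In cholangiocytes at E17.5 against E14.5 they were 0, against 2 by DESeq2 and 0 to 1 without a sum. With TPPB against control 1 was called, against 0 with at least 5 cells per sum and 0 to 0 without a sum. With U0126 against control 0 were called, against 1 with no filter on low counts and 0 to 1 without a sum. In the last, Ccne1 was called without control set 3; its control set 4 held no reads. The replicate block changed the members called at E17.5 against E10.5 from 7 to 8 (Cdkn1b added, adjusted p = 0.015) and in cholangiocytes against DLK+ cells from 5 to 4 (Cdkn1a lost, adjusted p = 0.10), and no other count. The labels do not say that equal numbers share an animal, sort or batch, so the numbers were not taken to pair libraries or sums. Those of the same number deviated together only weakly over all genes tested (r of -0.12 to 0.15), which cannot show that they are unpaired.

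Over all genes, DESeq2 called 1055 against edgeR's 553 in cholangiocytes at E17.5 against E14.5, 970 against 541 for the lineage difference, 66 against 4 between the gates and 1005 against 271 with TPPB. Without the filter on low counts edgeR called 15 between the gates and 856 with TPPB, and with at least 5 cells per sum 328 for the lineage difference. With U0126 edgeR called 0 genes, 288 had an unadjusted p below 0.05, DESeq2 called 31, and 86 were called without the filter. With TPPB and U0126 against U0126 the same counts were 0, 249, 27 and 52. The cause of these differences was not tested. With 2 libraries or 2 to 4 sums in most groups, and Ccnd2 and Cdkn2c near 0 reads in some, small changes of low genes were not detectable. Thinning moved 2 of 250 shares of cells with reads by more than their interval.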

Other observations

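The 2 E11.5 and 3 E12.5 EpCAM+ cells annotated as cholangiocytes, with 1 sum each, held Ccnd1 at 224 and 169 CPM and Ccnd3 at 278 and 139 CPM, and no read of Ccnd2. In DLK+ explant cells, Cdkn1a was at 74.8 plain CPM in the TPPB sum of 6 cells, and at 312 and 67.9 plain CPM in the control sums of 1 and 5 cells.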
